A study of Mus musculus with 16 samples.

Results

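The 10 genes described here code for chaperones and proteases of mitochondria: Hspd1, Hspe1, Hspa9, Dnaja3, Trap1, Lonp1, Clpp, Clpx, Yme1l1 and Htra2. They were chosen by name, as the probes whose transcript maps to these symbols or their synonyms, and the brightest probe stands for each gene. All 10 had a probe, with 19 probes among them, of 22911 genes named on the array and 56605 probes in all. RNA came from interscapular brown adipose tissue (BAT) and gonadal white adipose tissue (gWAT) of male C57BL/6NCrSlc mice. Adipo-Pgam1 KO mice carried floxed Pgam1 and Cre recombinase under the adiponectin promoter, which directs the deletion to adipocytes and leaves the gene in the other cells of the tissue. Controls were littermates called wild type in the labels, which the methods describe as floxed Pgam1 mice without Cre. Each combination of tissue and genotype had 4 one-colour Agilent arrays, 16 in all. All mice were 16 weeks old but replicate 4 of the knockout group in each tissue, which was 14 weeks old. The labels do not state that each array of a group is a separate mouse, and p-values measure the spread between these arrays.

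Most mitochondrial proteins are made in the cytosol and enter the matrix unfolded. Hspa9 (mortalin, the matrix Hsp70) pulls them in and holds them, with Dnaja3 as a J-domain partner, and Hspd1 (Hsp60) with its lid Hspe1 (Hsp10) folds them in a closed chamber. Trap1 is the Hsp90 of mitochondria. Lonp1 and the ClpXP complex, in which the ring of Clpx unfolds and feeds proteins to the peptidase Clpp, degrade matrix proteins, Yme1l1 works on the inner membrane facing the intermembrane space, and Htra2 is a serine protease of the intermembrane space. Brown adipocytes are packed with mitochondria, and several of these genes are read as markers of the mitochondrial unfolded protein response, in which the transcription factors Atf4, Atf5 and Ddit3 (CHOP) take part.

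Levels are log2 of the scanner's intensity over the 75th percentile of its array, so that a difference of 1 is a doubling, and levels of different genes cannot be set against each other because each is read by another probe. The 75th percentile lay between 401.3 and 451.3 on BAT control arrays, between 650.2 and 916.2 on BAT Adipo-Pgam1 KO arrays and between 570.3 and 855.3 on gWAT arrays. All 10 genes were well above background on all 16 arrays, and no spot was saturated. Pgam1, the deleted gene, averaged 7.94 ± 0.11 (SD, n = 4) in control BAT and 6.20 ± 0.17 in the BAT of Adipo-Pgam1 KO mice, called knockout BAT below. In gWAT it averaged 5.36 ± 0.29 in controls and 6.31 ± 0.25 on the arrays labelled Adipo-Pgam1 KO, higher by 0.95 (limma, adjusted p = 0.0139). The paper reports lower Pgam1 transcript, protein and enzyme activity in gWAT of Adipo-Pgam1 KO mice. The cause of the opposite reading on these arrays was not tested. Since Pgam1 on these arrays goes against their label, they are called the labelled gWAT arrays, meaning those labelled Adipo-Pgam1 KO. Every gWAT direction below depends on this label. The arrays lay on 3 slides. Slide 2 held all 4 BAT Adipo-Pgam1 KO arrays with 1 BAT control and 3 gWAT controls, slide 1 held the other 3 BAT controls, and slide 3 held the 4 labelled gWAT arrays with 1 gWAT control.

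Brown adipocyte markers fitted the tissue labels: Ucp1 was well above background on all 8 BAT arrays, on 0 of 4 gWAT control arrays and on 3 of the 4 labelled gWAT arrays. These markers moved with genotype too, where 34% of all genes tested were called lower and 27.5% higher in BAT. In gWAT 9.99% of all genes tested were called higher and 7.85% lower. In knockout BAT 5 of 6 brown adipocyte markers fell (median -1.25), with a summed level of 10.13 to 10.84, against 11.65 to 11.75 in controls. In the labelled gWAT arrays 3 of 4 tested were higher (median 2.79), with a summed level of 6.01 to 7.45, against 3.54 to 4.32. In knockout BAT, 7 of 7 macrophage markers rose and 6 of 6 adipocyte markers fell, with a summed macrophage level of 6.29 to 6.96, against 4.13 to 4.81 in controls. The summed adipocyte level was 9.55 to 10.02, against 11.16 to 11.29 in controls. In gWAT, 2 of 7 macrophage markers were higher in the labelled arrays (summed level 5.91 to 7.60, against 5.83 to 6.37 in controls) and 1 of 6 adipocyte markers was lower (10.66 to 11.05, against 10.74 to 11.43). Skeletal muscle markers summed to -1.31 to 0.12 in control BAT and to -0.22 to 6.33 in knockout BAT, with 1 of 3 tested markers called. In gWAT they summed to 1.72 to 4.61 in controls and to 4.89 to 5.86 in the labelled arrays, with 0 of 4 called, and Ckm was above background on none of these 8 arrays. Of 5 endothelial markers 0 were called in either tissue, of 2 tested T and B cell markers 1 rose in BAT, and no epididymal epithelium marker reached all 4 arrays of a group. The part of these cell types, brown adipocytes included, in the values below was not tested, and in whole tissue fewer cells of a type and less RNA per cell cannot be told apart.

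**Figure D1:**
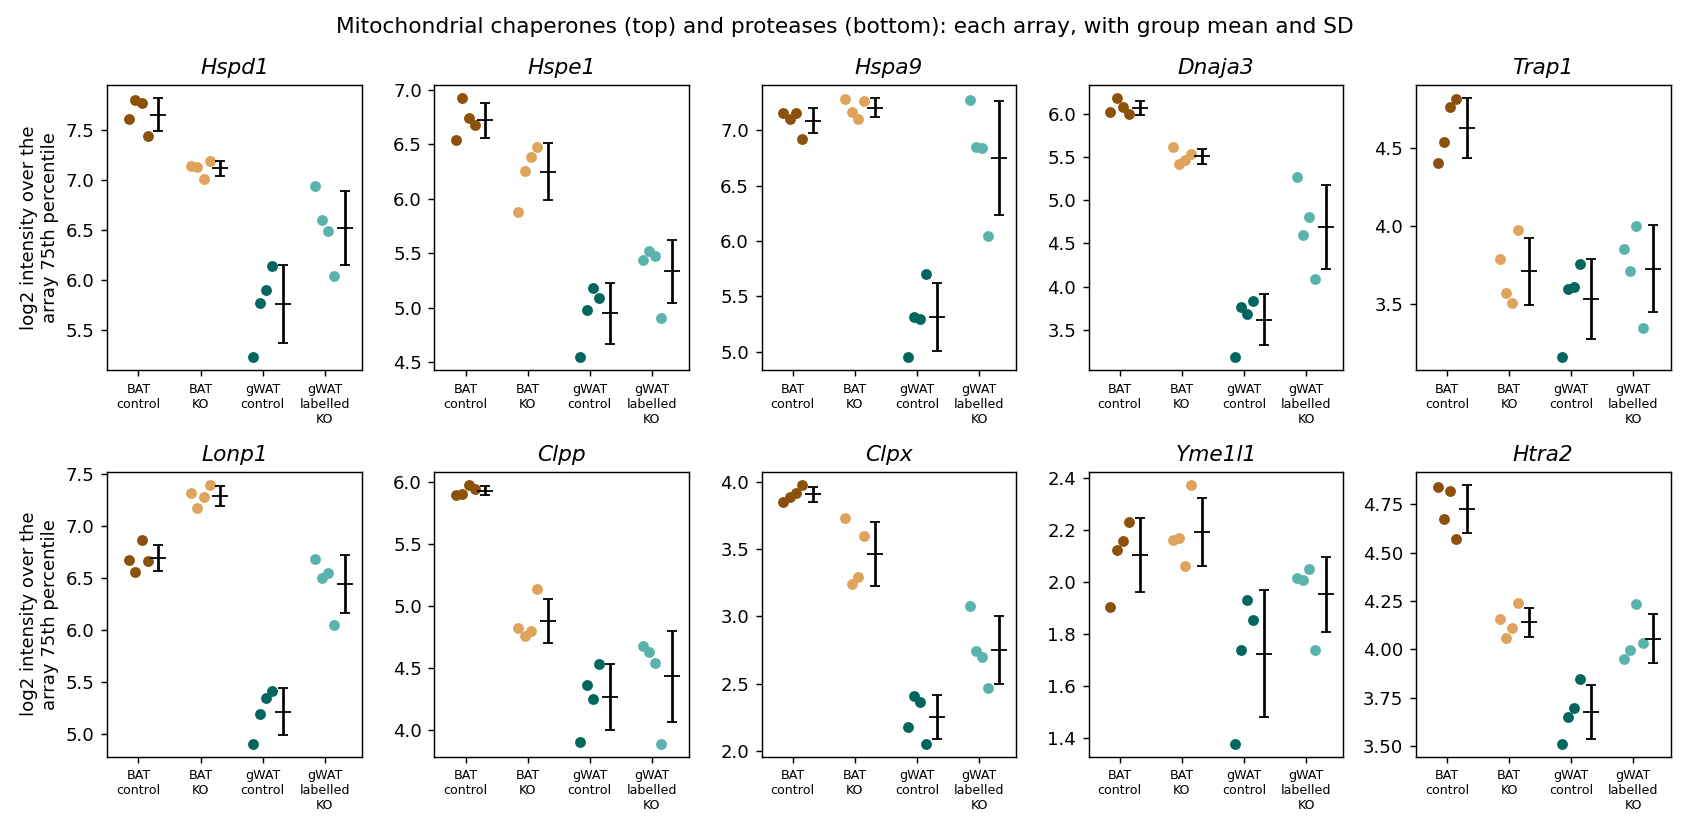
Level of each gene on every array, as log2 intensity over the 75th percentile of the array, for 4 groups of 4 arrays. Points are arrays, in the order of their replicate number, and the bar beside them is the mean with its SD. Hspd1 is highest in control BAT, at 7.44 to 7.80, and lowest in control gWAT, at 5.23 to 6.14.

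In control mice, all 10 genes were higher in BAT than in gWAT (limma, adjusted p from 4.01e-06 for Dnaja3 to 0.0486 for Yme1l1), beside 64.7% of the 14304 genes tested that differed in either direction, 35.4% higher and 29.3% lower in BAT. The median difference over the 10 genes was 1.66, against 0.10 over all genes tested. Dnaja3 differed most, by 2.46 (standard error 0.16), with levels of 6.02, 6.19, 6.08 and 6.00 in BAT and 3.18, 3.77, 3.68 and 3.83 in gWAT. The groups were far apart for that gene, and they did not overlap for 9 of the 10 genes, a pattern that 60.8% of all genes showed. Hspd1 was higher by 1.89 (standard error 0.20), Hspe1 by 1.77 (0.16) and Hspa9 by 1.77 (0.16), which is a ratio of 3.40 to 3.72. Among the proteases, Clpp and Clpx, the subunits of ClpXP, differed by the same 1.66 (standard errors 0.14 and 0.11), and Lonp1 differed by 1.48 (0.14). Trap1 and Htra2 differed less, by 1.10 (0.16) and 1.05 (0.12). For Yme1l1 the difference was 0.38 (95% interval 0.04 to 0.72), the groups overlapped, and the call was lost under 8 of the 15 other settings that kept all arrays. On slide 2, which held 1 BAT and 3 gWAT control arrays, the differences ran from 0.55 for Yme1l1 to 2.46 for Dnaja3.

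In BAT, the first question is what loss of Pgam1 in adipocytes did to these genes. Of the 10, 7 fell (Hspd1, Hspe1, Dnaja3, Trap1, Clpp, Clpx and Htra2), Lonp1 rose and Hspa9 and Yme1l1 did not pass the test. This is 8 calls of 10, where 61.5% of the 14280 genes tested were called. Of all genes tested, 34% were called lower and 27.5% higher. Among the chaperones the median difference was -0.54 and among the proteases -0.44, against -0.08 over all genes tested. Array scaling bears on these signs: Hspd1, Hspe1 and Clpx turned to differences of 0.01, 0.07 and 0.10 when arrays were scaled on their spike-in controls, and Dnaja3 (-0.02, adjusted p = 0.901) and Htra2 (-0.04, adjusted p = 0.761) no longer passed, under a scaling that moved the median of all genes from -0.08 to 0.46. Quantile normalization ended the calls of Hspd1 (-0.14, adjusted p = 0.287), Hspe1 (-0.20, adjusted p = 0.152) and Clpx (-0.23, adjusted p = 0.129). Scaling on Actb and Rplp0 left 9 of the 10 lower and none higher. Of all genes called in BAT, 44.8% were higher, a share that was 79.7% with spike-in scaling and 17.7% with scaling on Actb and Rplp0.

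Hspd1 and Hspe1, the chamber and its lid, lie next to each other on chromosome 1 and are read in opposite directions from a shared region. RefSeq gives Hspd1 starts 216 bases before and 95 bases beyond the Hspe1 start. The piece below is shown because both promoters share it and both genes moved the same way in BAT. It lies at chr1:55088053-55088082 (GRCm38.p6, taken from RefSeq, as are all sequences here), with the element centred 80 bases before the Hspe1 start and 135 bases before an Hspd1 start, and is written on each gene's own strand with the heat shock element (GAANNTTC, an inverted repeat bound by heat shock factors) in capitals.
Hspe1: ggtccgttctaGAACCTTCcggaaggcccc
Hspd1: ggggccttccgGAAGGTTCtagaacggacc
That element stands in 7.86% of all 32817 promoter windows, each reaching from 250 bases before to 50 bases after a start, and of the 8 genes with a window only in those of Hspd1 and Hspe1. Next to it, overlapping its end, both strands hold CCGGAAG, the core bound by ETS factors such as GABPA. Windows of Hspd1, Hspe1, Dnaja3, Clpp and Yme1l1 hold that core, as do 8.86% of all windows, and Hspd1 and Hspe1 share the same stretch. Windows of the 8 genes had 55.3% to 73.3% G and C, against a median of 52.7% over all windows. Trap1 was the other gene with a longer element, a cAMP response element (TGACGTCA, in 1.79% of windows) centred 43 bases before its start, shown with the element in capitals at chr16:4077839-4077868 on the minus strand.
Trap1: gtcgcgcgccaTGACGTCActgagccgccc
No window of the 8 genes held TGCAATNCC, a CHOP and C/EBP composite element (0.594% of windows), TGATGNAA, an ATF4 and C/EBP composite element (3.97%), the palindromic NRF1 site (0.966%), or TCAAGGTCA, an ERR element (0.424%). The GC box (GGGCGG) stood in windows of 6 of the 8 genes and in 35.6% of all windows, and CCAAT in those of 4 genes and in 37.4%. Both strands were searched, for 11 motifs in all. Such matches are letters in a window and no sign of binding.

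Hspd1 stood at 7.61, 7.80, 7.77 and 7.44 in control BAT and at 7.14, 7.13, 7.01 and 7.19 in knockout BAT. All 4 knockout arrays lay below all control arrays, and the difference was -0.54 (standard error 0.11, adjusted p = 0.00242), a ratio of 0.689. Hspe1 stood at 6.54, 6.93, 6.74 and 6.68 in controls and at 5.88, 6.25, 6.38 and 6.47 in knockouts. The highest knockout array lay just below the lowest control. The Hspe1 difference was -0.47 (standard error 0.15, adjusted p = 0.0217), and it no longer passed without control replicate 2 (-0.41, adjusted p = 0.0603). The probes of Hspe1 disagreed: the brightest 2 differed by -0.47 and -0.55, but the dimmest, which is also well above background on all 16 arrays, differed by 0.97 in the other direction. Averaging the 3 left -0.02 (adjusted p = 0.950). Both Hspd1 and Hspe1 have near-identical processed pseudogenes, so their probes may read other copies too. For Hspd1 the second probe differed by -0.32.

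Dnaja3, the J-domain partner of Hspa9, fell by 0.56 (standard error 0.09, adjusted p = 0.000704), with knockouts at 5.43 to 5.61 and controls at 6.00 to 6.19. Trap1 had the largest fall among the chaperones. Its levels were 4.40, 4.54, 4.76 and 4.81 in controls and 3.78, 3.57, 3.51 and 3.97 in knockouts, a difference of -0.92 (standard error 0.14, adjusted p = 0.000578) and a ratio of 0.529. Hspa9 went the other way from its partner in value but without passing the test. It stood at 6.92 to 7.16 in controls and 7.10 to 7.28 in knockouts, overlapping, with a difference of 0.12 (95% interval -0.10 to 0.34, adjusted p = 0.306). Its sign and call moved with scaling, to 0.42 (adjusted p = 0.00819) after quantile normalization, 0.66 (adjusted p = 0.00116) with spike-in controls and -0.47 (adjusted p = 0.00905) when arrays were scaled on Actb and Rplp0.

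Among the proteases, Lonp1 and Clpp parted. The 120 bases before each start are given because Lonp1 alone rose and Clpp fell most of the 10 genes, and both lie on chromosome 17. Capitals mark CACGTG, the E-box, and TGACGT, the leading part of the cAMP response element, which were picked after the Lonp1 sequence had been read. They stand in 7.15% and 7.51% of all windows, and among the 8 genes CACGTG stood also in a window of Hspd1 and TGACGT also in that of Trap1. The pieces lie at chr17:56626904-56627023 on the minus strand for Lonp1 and chr17:56990144-56990263 on the plus strand for Clpp.
Lonp1: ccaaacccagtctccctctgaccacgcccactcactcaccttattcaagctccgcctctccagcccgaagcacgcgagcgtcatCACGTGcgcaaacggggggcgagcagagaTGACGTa
Clpp: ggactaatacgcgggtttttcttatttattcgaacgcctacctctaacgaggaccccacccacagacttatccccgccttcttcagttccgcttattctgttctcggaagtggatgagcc

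Lonp1 stood at 6.67, 6.56, 6.87 and 6.67 in control BAT and at 7.32, 7.17, 7.28 and 7.40 in knockout BAT. Every knockout array was above every control array. It rose by 0.60 (standard error 0.10, adjusted p = 0.000926), a ratio of 1.52. The array has only 1 probe for it. Its difference stayed above 0 under all 23 alternatives run, but was 0.01 (adjusted p = 0.952) when arrays were scaled on Actb and Rplp0. Clpp stood at 5.89, 5.91, 5.98 and 5.94 in controls and at 4.82, 4.76, 4.80 and 5.14 in knockouts. Replicate 4, the younger mouse, was the highest of the knockouts and still far below the lowest control. It fell by 1.05 (standard error 0.11, adjusted p = 6.49e-05), a ratio of 0.484, and was called in the same direction under every alternative run. Clpx, its partner ring, fell less, by 0.44 (standard error 0.13, adjusted p = 0.0147), with 3.85 to 3.98 in controls and 3.24 to 3.74 in knockouts, and its 2 probes differed by -0.44 and -0.45. Htra2 fell by 0.59 (standard error 0.10, adjusted p = 0.000873) and its 3 probes differed by -0.43 to -0.65. Yme1l1 stood at 1.90 to 2.23 in controls and 2.06 to 2.38 in knockouts, a difference of 0.09 (95% interval -0.16 to 0.34, adjusted p = 0.510).

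The exact permutation test of 4 arrays against 4, two-sided, gave p = 0.0286 for each of the 8 genes called in BAT, the smallest value this design allows, and 0.05003 after Benjamini-Hochberg adjustment over all genes. Groups did not overlap for those 8 genes, as for 57.1% of all genes. With slide as a fixed block, 5 of the 10 remained past the threshold (Dnaja3, Trap1, Lonp1, Clpp and Htra2), where 46.8% of all genes did. On slide 2 alone, with 4 knockout arrays and 1 control, the differences were -0.32 for Hspd1, -0.43 for Hspe1, 0.29 for Hspa9, -0.49 for Dnaja3 and -1.10 for Trap1. For the proteases they were 0.62 for Lonp1, -1.06 for Clpp, -0.51 for Clpx, -0.04 for Yme1l1 and -0.43 for Htra2.

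**Figure D2:**
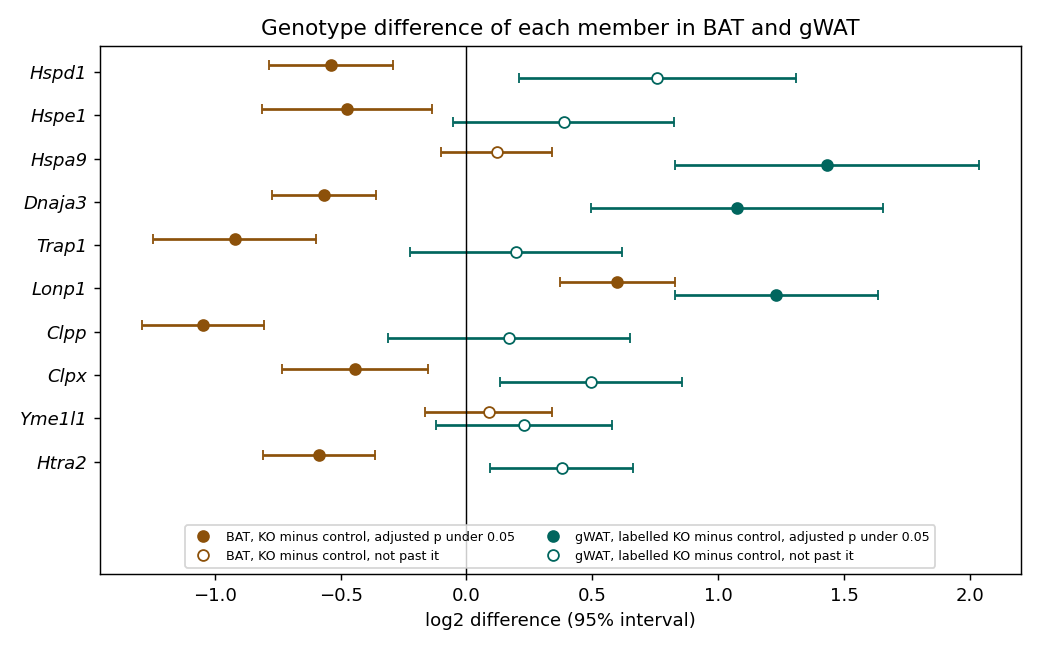
Genotype difference of each gene on the log2 scale in BAT (brown) and in gWAT (green, arrays labelled Adipo-Pgam1 KO minus control), with its 95% interval from limma. Filled points passed an adjusted p of 0.05. In BAT 7 filled points lie below 0 and Lonp1 lies at 0.60, and in gWAT all 10 points lie above 0 and 3 are filled.

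In gWAT, 3 of the 10 genes rose in the labelled arrays: Hspa9, Dnaja3 and Lonp1. Of the 14149 genes tested, 17.8% were called, with 9.99% higher and 7.85% lower. None of the 10 fell, and the differences of all 10 lay above 0, with a median of 0.44, against 0.05 over all genes tested. The chaperone median was 0.76 and the protease median 0.38. Of all genes called in gWAT, 56% were higher, and the share was 95.3% with spike-in scaling and 71% with scaling on array medians.

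Hspa9 showed the widest difference, with levels of 4.95, 5.32, 5.30 and 5.70 in controls and 7.27, 6.85, 6.84 and 6.04 in the labelled arrays. The lowest of these, replicate 4, still lay above the highest control. The difference was 1.43 (standard error 0.27, adjusted p = 0.0114), a ratio of 2.70, and the second probe of the gene differed by 1.39. Lonp1 stood at 4.90, 5.19, 5.35 and 5.41 in controls and at 6.69, 6.50, 6.55 and 6.05 in the labelled arrays, without overlap. Its difference was 1.23 (standard error 0.18, adjusted p = 0.00489), a ratio of 2.35. For Dnaja3 the levels were 3.18, 3.77, 3.68 and 3.83 against 5.27, 4.59, 4.81 and 4.09. It differed by 1.07 (standard error 0.26, adjusted p = 0.0248), and that call held under 13 of 23 alternatives. The call was lost in 6 of 8 fits that left out 1 array, with adjusted p-values of 0.0507 to 0.0682. It was also lost with the replicate number as a block (adjusted p = 0.0766) and with no filter on dim probes (adjusted p = 0.0616). The methods' t-test after Benjamini-Hochberg (adjusted p = 0.0614) and slide as a fixed block (difference 0.86) lost it too.

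Hspd1 differed by 0.76 (95% interval 0.21 to 1.31, adjusted p = 0.0608) and overlapped, with controls at 5.23, 5.77, 5.90 and 6.14 and labelled arrays at 6.94, 6.60, 6.49 and 6.04. Replicate 4 of the labelled arrays was the single array inside the control range. Without it the difference was 0.92 (adjusted p = 0.0301). Clpx differed by 0.50 (95% interval 0.14 to 0.86, adjusted p = 0.0614) and Htra2 by 0.38 (0.09 to 0.66, adjusted p = 0.0683), both without overlap, and Clpx passed without replicate 4 of the labelled arrays (0.59, adjusted p = 0.0320). Hspe1 had a difference of 0.39 (95% interval -0.05 to 0.83). As in BAT its probes disagreed, at 0.39, 0.59 and, for the dimmest, -0.94. The smallest differences were those of Trap1 at 0.20 (-0.23 to 0.62), Clpp at 0.17 (-0.31 to 0.65) and Yme1l1 at 0.23 (-0.12 to 0.58).

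Groups did not overlap for 5 of the 10 genes in gWAT, as for 24.2% of all genes, and the exact permutation p was 0.0286 for each (adjusted p = 0.118). Leaving out replicate 4 of the labelled arrays raised the calls from 3 to 5, beside 22.3% of all genes. Spike-in scaling, which moved the median of all genes to 0.49, raised them to 10, beside 36% of all genes. Slide 3 held those 4 arrays with 1 control, and there the differences were 1.05 for Hspa9, 0.86 for Dnaja3, 1.04 for Lonp1, 0.38 for Hspd1, 0.25 for Hspe1, -0.03 for Trap1, -0.10 for Clpp, 0.69 for Clpx, 0.10 for Yme1l1 and 0.21 for Htra2. With slide as a fixed block limma called 0 of the 10 and 1.3% of all genes. At an unadjusted p under 0.05 that fit called 3 of the 10 and 18% of all genes. With slide as a random block limma called the same number as without, 3, beside 17% of all genes.

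The genotype difference was higher in gWAT than in BAT for most of these genes. In the interaction fit over 16 arrays, gWAT difference minus BAT difference, 9 of the 10 genes passed and all 9 were above 0, where 48.3% of 14820 genes were called and 27.4% were above 0 and 21% below. The interaction was 1.64 for Dnaja3 (standard error 0.28, adjusted p = 0.000340), 1.31 for Hspa9, 1.30 for Hspd1, 1.22 for Clpp and 1.12 for Trap1. These values and their order rest on the gWAT label. Lonp1, above its controls in both tissues, was at 0.63 (standard error 0.20, adjusted p = 0.0188), and it no longer passed after quantile normalization (0.22, adjusted p = 0.163), after normexp background correction (0.11, adjusted p = 0.515) or with slide as a random block (0.58, adjusted p = 0.0586). For Hspe1 the interaction was 0.86 (standard error 0.25, adjusted p = 0.0107), but 0.03 (adjusted p = 0.947) with the mean of its 3 probes, 1 of which runs opposite to the others, 0.39 (adjusted p = 0.0566) after quantile normalization and 0.26 (adjusted p = 0.205) after normexp. For Yme1l1 it was 0.14 (95% interval -0.25 to 0.53). With the mice of 16 weeks only, the count was again 9, where 49% of all genes were called. With slide as a fixed block 2 passed, Clpx and Htra2, beside 22% of all genes. The labels do not say whether BAT and gWAT arrays of the same number come from the same mouse.

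Between knockout BAT and the labelled gWAT arrays, BAT was higher for 5 of the 10 genes (Hspd1, Hspe1, Dnaja3, Lonp1 and Clpx), where 46.1% of 14449 genes were called and 23.4% were higher in BAT. These groups lay on separate slides and scan days, and slide and tissue cannot be told apart. The median difference was 0.53, and in controls it was 1.66. Hspe1 differed by 0.91 (standard error 0.18, adjusted p = 0.00397), and Trap1 and Htra2 differed by -0.02 (95% interval -0.40 to 0.37) and 0.09 (-0.16 to 0.33). The call of Hspd1 held under 12 of 22 alternatives and that of Clpx under 21. Those of Hspe1, Dnaja3 and Lonp1 held under all 22.

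In order of level, 6 genes (Hspd1, Hspe1, Dnaja3, Clpp, Clpx and Htra2) ran from control BAT to knockout BAT, then the labelled gWAT arrays, then control gWAT. Between the last neighbours in that order only Dnaja3 passed the test, and between the middle neighbours Clpp and Htra2 did not pass. Hspa9, Lonp1 and Yme1l1 had another order, with knockout BAT first, then control BAT, the labelled gWAT arrays and control gWAT, and among these only Lonp1 passed between the first neighbours. For Trap1 the lower 3 groups lay between 3.53 and 3.72 on average, and neighbours among them did not differ beyond their spread.

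Array scaling shifts all genes of an array together, so the genes were also set against each other on the same arrays, as a description added after their values had been seen. Relative to the mean of the 10, Lonp1 was higher by 0.98 ± 0.06 (SE, n = 4 and 4) in knockout BAT and by 0.60 ± 0.02 in the labelled gWAT arrays. Hspa9 was higher by 0.50 ± 0.07 in BAT and 0.80 ± 0.13 in gWAT. Clpp differed by -0.67 ± 0.05 and -0.46 ± 0.07, and Trap1 by -0.54 ± 0.10 and -0.44 ± 0.07. Groups did not overlap in either tissue for these 4 genes, nor for Dnaja3 and Yme1l1. The share over all genes was not computed for this relative measure, so the count is no result about these genes. Without the relative measure, groups did not overlap for 57.1% of all genes in BAT and 24.2% in gWAT. Relative to that mean, Dnaja3 and Yme1l1 went opposite ways in the tissues. The values were -0.19 and 0.44 for Dnaja3 and 0.47 and -0.41 for Yme1l1. The mean itself went from 5.55 to 5.18 in BAT and from 4.03 to 4.67 in gWAT. It holds each of the 10 genes, so relative differences balance out and some must go each way. Taken alone, Yme1l1 differed by 0.09 in BAT and 0.23 in gWAT. In gWAT Clpp and Trap1 alone differed by 0.17 and 0.20. The Lonp1 level minus the Clpp level on the same array, which no scaling by 1 factor per array can alter, ran from 0.66 to 0.89 in control BAT and from 2.26 to 2.49 in knockout BAT. The same value ran from 0.83 to 1.10 in control gWAT and from 1.87 to 2.15 in the labelled arrays. Lonp1 and Clpp had the highest and the lowest BAT difference of the 10, so the separation in BAT follows from that choice. No share over other pairs of genes was computed, and the gap is a description only. Scalings by 1 factor per array leave the distance of a gene from the median of all genes unchanged by construction. Quantile normalization and normexp with quantile can alter it, and with these the 7 genes called lower in BAT still lay below that median and Lonp1 above it.

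**Figure D3:**
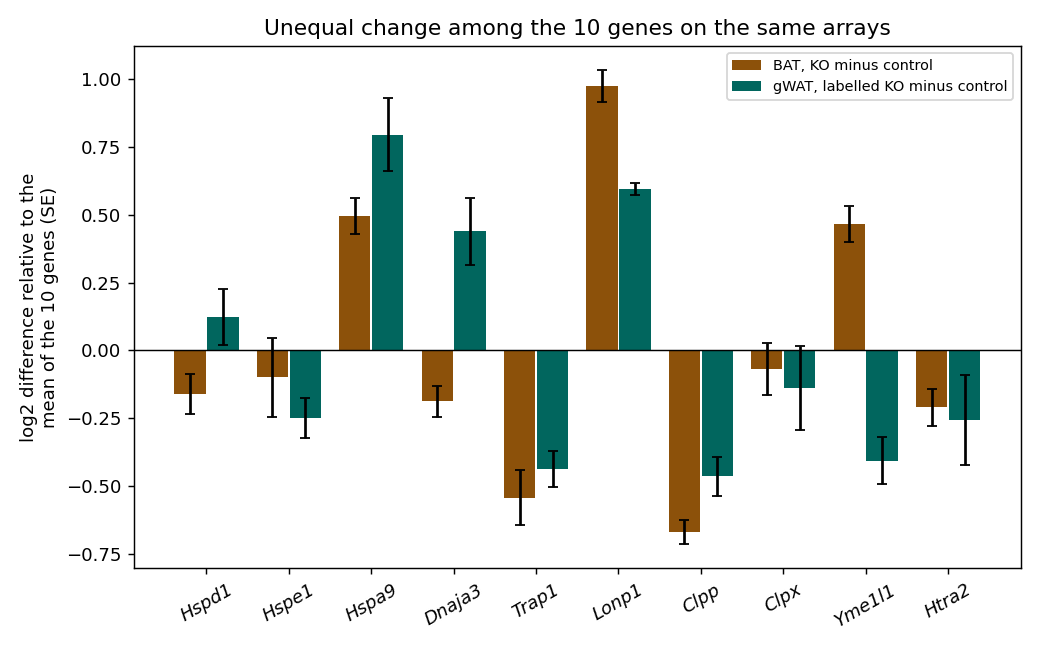
Genotype difference of each gene relative to the mean of the 10 genes on the same array (log2), in BAT and in gWAT (arrays labelled Adipo-Pgam1 KO minus control), with the standard error over 4 and 4 arrays. Lonp1 and Hspa9 lie above 0 in both tissues, at 0.98 and 0.50 in BAT. Clpp and Trap1 lie below 0 in both, at -0.67 and -0.54 in BAT. In gWAT this sign is relative to a mean that was higher in the labelled arrays. Taken alone, Clpp and Trap1 differed there by 0.17 and 0.20.

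**Figure D4:**
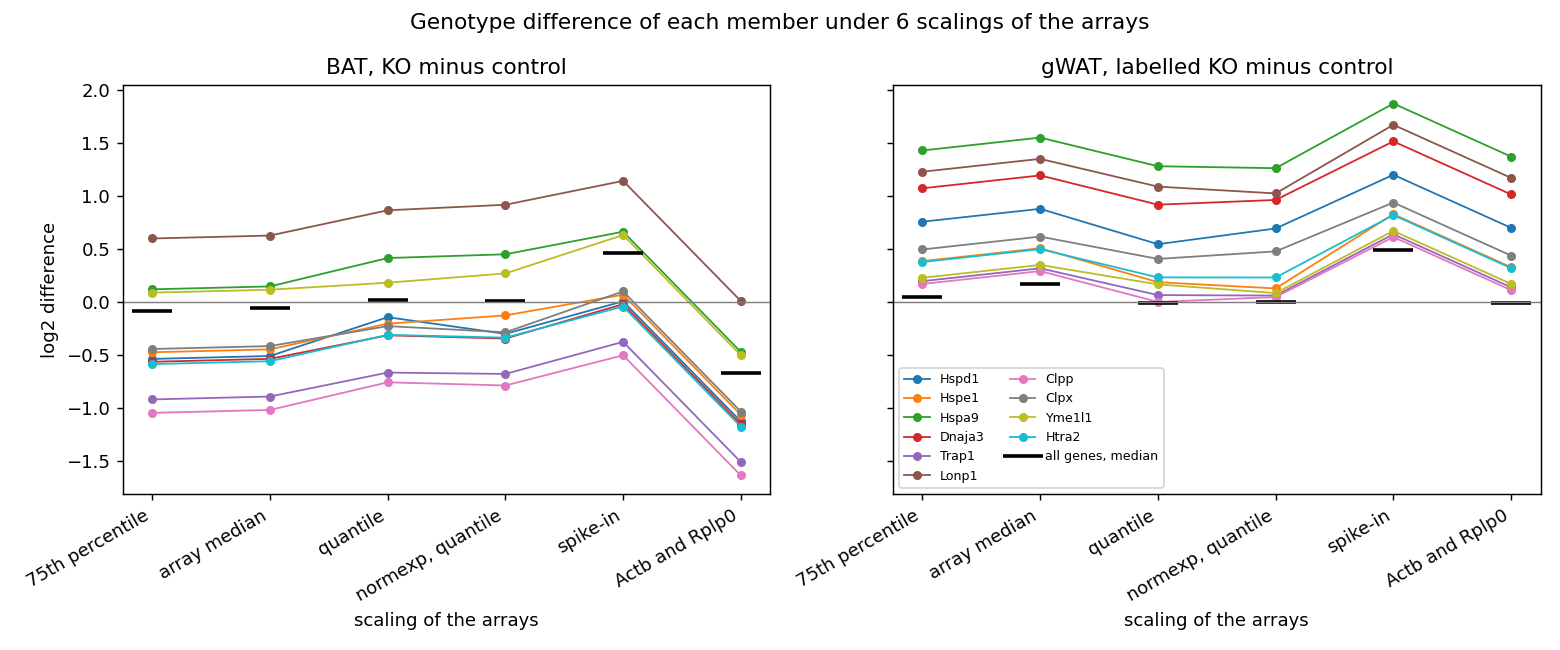
Genotype difference of each gene under 6 scalings of the arrays in BAT and in gWAT (arrays labelled Adipo-Pgam1 KO minus control), with the median of all genes tested as a black bar. In BAT that median runs from -0.67 with Actb and Rplp0 to 0.46 with the spike-in controls, and the genes move with it.

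The genes around these 10 were counted by list. Beside the counts of every list, 34% of all genes tested were called lower and 27.5% higher in BAT. In gWAT 9.99% were called higher and 7.85% lower. Spike-in scaling called 63.7% of all genes in BAT, 79.7% of them higher, and 36% in gWAT, 95.3% of them higher. Array medians called 9.78% in gWAT, 71% of them higher. A list of chaperone partners and related genes showed 8 of 9 lower and 1 higher in knockout BAT, with a median of -0.89. Dnlz differed by -1.10, Dnajc15 by -1.08 and Grpel1, a nucleotide exchange factor of Hspa9, by -0.92 (standard errors 0.15, 0.13 and 0.11). The exception was Grpel2, the other exchange factor, which rose by 0.59 (adjusted p = 0.00189) and, singled out after its value was seen, was at -0.004 when arrays were scaled on Actb and Rplp0. In the labelled gWAT arrays, 5 of 9 on that list were higher and none lower (median 0.68), led by Clpb at 0.85, Dnajc19 at 0.80 and Grpel1 at 0.75. That count ran from 0 of 9 with array medians to 9 of 9 with spike-in scaling. Of 17 other mitochondrial proteases and prohibitins, 16 were lower and 1 was higher in BAT (median -0.75; 8 lower and a median of -0.20 with spike-in scaling), with Xpnpep3 at -1.31, Mipep at -1.23 and Atp23 at -1.18. The exception, also named after its value was seen, was Oma1, a stress-activated inner membrane protease, at 0.52 (adjusted p = 0.0369) and at -0.08 when arrays were scaled on Actb and Rplp0. In the labelled gWAT arrays 4 of the 17 were higher, among them Immp2l at 0.82, Phb2 at 0.75 and Pmpca at 0.71, a count that ran from 2 to 13 over the scalings.

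Protein import genes were lower for 14 of 20 in BAT, beside 34% of all genes, and higher for none (median -0.53). Timm21 differed by -1.32, Timm13 by -1.09 and Timm50 by -1.07. The list median was 0.01 under spike-in scaling, where the median of all genes was 0.46. In the labelled gWAT arrays 5 of 20 were higher (median 0.50), led by Timm10 at 1.21, Timm8a1 at 1.07 and Timm17a at 0.86, a count that ran from 2 to 19 over the scalings. A list of 12 genes that stand for mitochondrial content was lower for 9 in BAT and higher for none (median -0.83), with Uqcrc1, a subunit of complex III, at -1.50, Cox4i1 at -1.20 and Atp5a1 at -1.13. It was higher for 8 in the labelled gWAT arrays (median 0.66), with Cs, citrate synthase, at 0.98, Uqcrc1 at 0.87 and Atp5a1 at 0.80. These counts too moved with scaling. In BAT, quantile normalization left 5 lower (median -0.17) and spike-in scaling 6 lower and 3 higher, and in gWAT 1 of 12 was higher with array medians and 12 of 12 with spike-in scaling. The summed level of these 12 genes ran from 12.2 to 12.3 in control BAT, 11.1 to 11.5 in knockout BAT, 10.1 to 10.6 in control gWAT and 10.6 to 11.2 in the labelled gWAT arrays. The median of the 10 chaperones and proteases was -0.51 in BAT and 0.44 in gWAT, and the part of mitochondrial content in their differences was not tested.

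Of 8 regulators of mitochondrial stress, Ddit3 rose by 2.28 (standard error 0.27, adjusted p = 0.000124), Atf4 by 1.64 (0.18, adjusted p = 8.21e-05) and Atf5 by 1.39 (0.10, adjusted p = 1.74e-05) in knockout BAT, and these were called higher under all 6 scalings. The other genes of the list, Cebpb, Hsf1, Ubl5, Eif2ak1 and Dele1, all lay below 0 in BAT, with 4 called lower and 1 not called. The list median was -0.23 in BAT, against -0.08 over all genes tested. In gWAT 2 of the 8 were called, each higher, with a median of 0.17. In the labelled gWAT arrays Atf5 was higher by 1.79 (0.22, adjusted p = 0.00296) and Ddit3 by 1.64 (0.30, adjusted p = 0.0104), and Atf4 differed by 0.03 (0.31, adjusted p = 0.952). The Atf4 difference was unlike between the tissues (interaction -1.61, adjusted p = 0.00296), while for Atf5 and Ddit3 the interaction did not pass (adjusted p = 0.211 and 0.229). Of 20 cytosolic chaperones, 4 were higher and 2 lower in BAT (median 0.06), where 27.5% of all genes were higher and 34% lower. Among those called, Hsp90ab1 differed by -0.39, Hspa4 by 0.36 and Cct5 by 0.32. Under the 6 scalings between 0 and 9 of the 20 were higher and between 0 and 14 lower. In the labelled gWAT arrays 3 of the 20 were higher, Cct3 by 0.92, Hspb1 by 0.79 and Cct2 by 0.64 (median 0.31), a count that ran from 2 to 15 over the scalings.

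**Figure D5:**
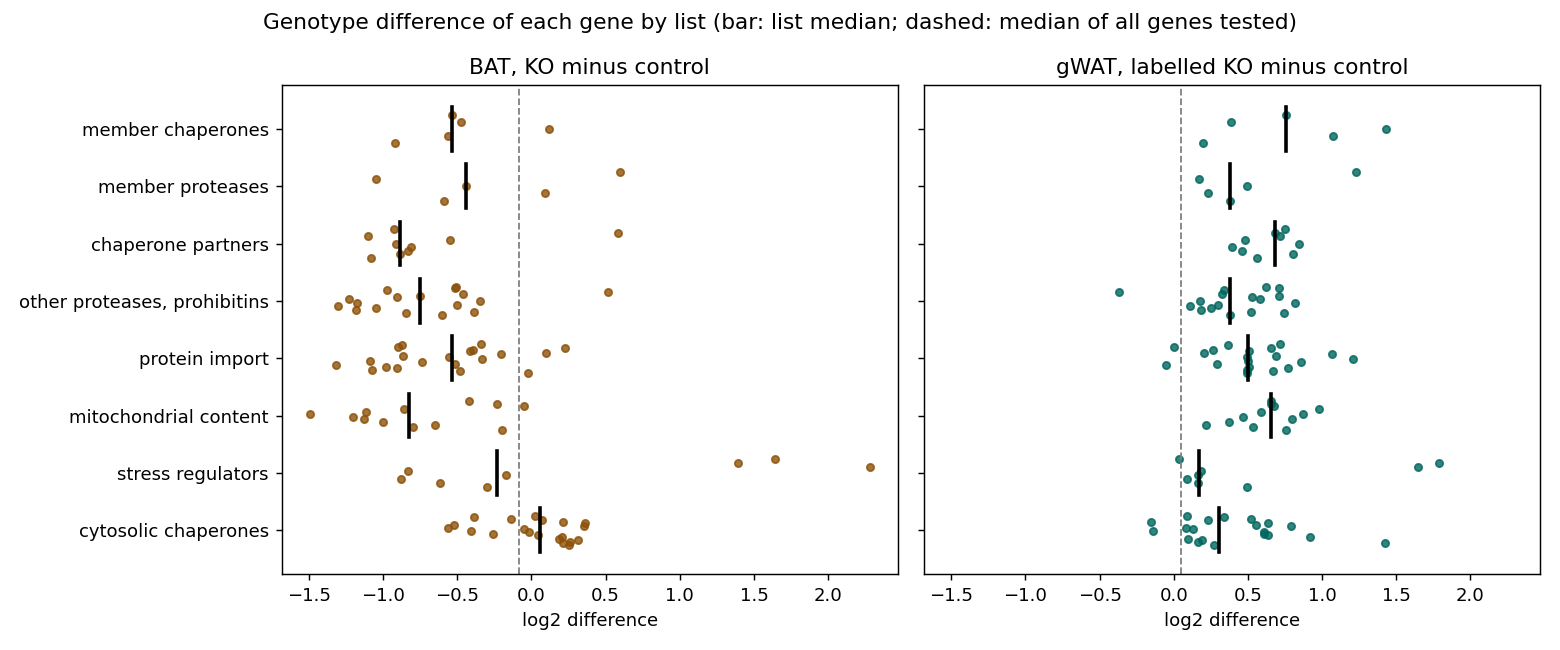
Genotype difference of every gene of 8 lists (log2), in BAT and in gWAT (arrays labelled Adipo-Pgam1 KO minus control). Each point is a gene, each bar a list median, and the dashed line the median of all genes tested, at -0.08 in BAT and 0.05 in gWAT. Ddit3, Atf4 and Atf5 stand apart at 2.28, 1.64 and 1.39 in BAT, and the other genes of their list lie below 0 there.

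Likeness of pattern was measured as the root mean square difference of centred log2 levels over the 16 arrays, among 12359 genes well above background on all of them, as a description of arrays that share tissue and genotype. Nearest to Hspd1 were Mrps5 (0.14), Coq3 (0.15) and Mrpl46 (0.15), and nearest to Hspe1 were Mrpl21 (0.13), Mrps16 (0.14) and Mrm1 (0.15). Hspe1 ranked 81st of 12359 from Hspd1, and Hspd1 ranked 59th from Hspe1. From Hspd1 the other 8 members ranked between 128 (Dnaja3) and 2642 (Yme1l1). Around Lonp1 the nearest genes were Pmm1 (0.18), Rfc4 (0.20) and Spata5l1 (0.20), and Hspa9 ranked 6th. Clpp ranked 3187th from Lonp1 and Trap1 3757th, the farthest of the members.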

How the data were processed

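Cy3-labelled RNA of 16 samples was hybridized to 1-colour Agilent SurePrint G3 mouse arrays and read with Agilent Feature Extraction 10.7.1.1, per the labels. The authors deposited each scanner's background-subtracted intensity, and a table of GeneSpring values that matched this intensity over the array's 75th percentile (median log2 gap 0.00122 to 0.00504, column medians 0.083 to 0.109), here an alternative. Spots flagged as outliers were left out and spots of a probe averaged. Of 35886 probes with a RefSeq accession, 91.9% matched a symbol (RefSeq, GRCm38.p6). Arrays had 50.0% to 62.2% of probes well above background. Differences of log2 values were tested with limma 3.58.1 in R 4.3.3 (lmFit and eBayes), with only the groups compared, on genes that 1 or more of these groups showed well above background in all 4 arrays, with Benjamini-Hochberg adjustment over all of them and a threshold of 0.05. Alternatives were other scalings, background correction, filters, probe means, slide and replicate blocks, the methods' t-test and leaving out each array. The code of the fit was run on simulated independent values with few changed genes and no slide effect. That setting is unlike these data and does not vouch for the calls here. Named genes were the 10 members, the 3 largest calls of each wider list per tissue, and the 3 genes nearest in pattern. Members and lists were chosen with earlier results of these data known. The number of arrays limits the precision.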

Additional observations from a re-analysis of the deposited data

Results flagged for a closer look

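Among the 40 groups of 4 arrays examined, 10 genes in 4 groups, 4 held an array far from the other 3, and chance flags about 1 in 20 groups. In BAT of Adipo-Pgam1 KO mice, Clpp stood at 5.14 in replicate 4 and at 4.76 to 4.82 in the others. In gWAT, replicate 4 of the group labelled Adipo-Pgam1 KO held the low value for Clpp (3.89, others 4.55 to 4.68), Hspe1 (4.90, others 5.44 to 5.52) and Yme1l1 (1.74, others 2.01 to 2.05). Replicate 4 was the 14-week-old mouse in both groups. These 2 arrays also differed from the others of their group in array measures. In BAT, replicate 4 had 52.2% of probes well above background, against 58.5% to 60.6% in the other knockout arrays. In gWAT, replicate 4 of the labelled arrays had the lowest such share of all arrays. Its spike-in controls also had the lowest mean log2 intensity, at 13.51. The part of age or of these array measures in the values above was not tested.

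The genotype difference in gWAT minus that in BAT passed the interaction test for 9 genes. It was 1.30 for Hspd1, 0.86 for Hspe1, 1.31 for Hspa9, 1.64 for Dnaja3 and 1.12 for Trap1 among the chaperones. Among the proteases it was 0.63 for Lonp1, 1.22 for Clpp, 0.94 for Clpx and 0.96 for Htra2.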

How the results depend on the processing

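Over all alternatives, the values of single genes kept their direction and side of the threshold 1107 times, lost the call 65 times, gained it 30 times and turned sign 18 times. In BAT the number of the 10 genes called went from 8 to 5 with spike-in scaling (3 higher, 2 lower; 63.7% of all genes called), 5 with slide as a fixed block (46.8%), 6 with quantile normalization (60.1%) and 9, all lower, with Actb and Rplp0 (75.8%). In gWAT it went from 3 (17.8% of all genes called) to 10 with spike-in scaling (36%), 5 with normexp (23.1%) and 0 with slide as a fixed block (1.3%). It was 6 in 1 fit over 16 arrays (28.6%) and 6 by the methods' t-test unadjusted (33%). The interaction count went from 9 (48.3% of all genes) to 2 with slide as a fixed block (22%). The count between tissues of Adipo-Pgam1 KO arrays went from 5 (46.1%) to 3 with scaling on Actb and Rplp0 (43.7%). Leaving out 1 array gave 7 to 8 in BAT (55.1% to 61% of all genes called) and 2 to 5 in gWAT (7.58% to 22.3%). The 5 came without replicate 4 of the labelled arrays. Such fits gave 9 for the interaction (43.9% to 51%) and 9 to 10 between tissues of controls (58.9% to 62.8%). Between tissues of Adipo-Pgam1 KO arrays they gave 4 to 6 (36.6% to 50.5%). The cause of these moves was not tested.

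Signs turned in BAT with spike-in scaling for Hspd1 (0.0069), Hspe1 (0.070) and Clpx (0.10), with Actb and Rplp0 for Hspa9 (-0.47) and Yme1l1 (-0.50), and with slide as a fixed block for Yme1l1 (-0.037). In gWAT, slide as a fixed block turned Trap1 (-0.028) and Clpp (-0.10). The Yme1l1 interaction turned with quantile normalization (-0.016) and normexp (-0.19). Between tissues of Adipo-Pgam1 KO arrays, Trap1 turned with quantile normalization (0.024) and normexp (0.0054) and in 4 of 8 fits without 1 array (which ran from -0.15 to 0.073), and Htra2 with spike-in scaling (-0.044) and Actb and Rplp0 (-0.11).

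Samples share only a replicate number: correlations of same-numbered deviations ran from -0.14 to 0.43 in gWAT, from 0.00035 to 0.22 in BAT, from -0.07 to 0.22 between tissues of controls and from -0.19 to 0.29 between tissues of Adipo-Pgam1 KO arrays, with 3 of 4 over 0.1 in both comparisons between tissues. With the replicate block the calls were 8 in BAT (60.3% of all genes), 2 in gWAT (7.68%) and 9 for the interaction (47.5%). Between tissues they were 10 in controls (63.1%) and 5 in Adipo-Pgam1 KO arrays (40.4%). Of all genes in gWAT, 2525 were called, against 1087 with the replicate block, 184 with slide as a fixed block, 1384 with array medians, 5100 with spike-in scaling, 1134 with no filter, 4040 in 1 fit over 16 arrays, and 1618 by the methods' t-test after Benjamini-Hochberg (4673 unadjusted). The interaction called 7162 genes, against 3265 with slide as a fixed block, and the comparison between tissues of Adipo-Pgam1 KO arrays 6664, against 4396 with spike-in scaling. Slide blocks were not run for that last comparison, in which slide and tissue are the same split. A comparison of mice of 16 weeks only was chosen after seeing the data. It gave 9 for the interaction (49% of all genes called) and 4 between tissues of Adipo-Pgam1 KO arrays (45.9%).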
